A study of Mus musculus with 91 samples.

Results

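The proteasome subunit genes are 31 genes that encode the structural subunits of the constitutive proteasome. They were taken by Ensembl identifier from the 14355 genes in the deposited count table, and all 31 were present. The set holds 7 genes of the outer (alpha) rings of the core particle (Psma1 to Psma7), 7 of its inner (beta) rings (Psmb1 to Psmb7), 6 ATPases at the base of the regulatory particle (Psmc1 to Psmc6) and 11 other subunits of that particle (the Psmd genes). The rule for the choice used no measured value, but the choice was made with earlier results of these data known. The table names no gene, so the symbols come from the list of members; Psmd4, for example, is ENSMUSG00000005625, Psma1 is ENSMUSG00000030751 and Psmc5 is ENSMUSG00000020708.

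The proteasome degrades proteins tagged with ubiquitin. Its regulatory particle binds the tagged protein, removes the ubiquitin chain and unfolds the protein with a ring of ATPases, and the core particle then cuts it. Psmb5, Psmb6 and Psmb7 encode the catalytic subunits, with chymotrypsin-like, caspase-like and trypsin-like activity. In neurons proteasomes take part in synaptic protein turnover and plasticity, and in many cells a transcription factor encoded by Nfe2l1 can raise many subunit genes together through antioxidant response elements.

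RNA bound to tagged ribosomes was sequenced from the nucleus accumbens, a ventral striatal region, of mice carrying a RiboTag allele, which puts an HA tag on the ribosomal protein Rpl22 in cells with Cre. D1 libraries (23 female, 22 male) came from Drd1-Cre animals and D2 libraries (23 female, 23 male) from A2a-Cre animals, so cell type and mouse line cannot be told apart. All animals were untreated, over 10 weeks old and kept in 12 h light and 12 h dark; each sample pooled 2 mice, collected at ZT2, 6, 10, 14, 18 or 22, where ZT is hours after lights on. The 24 groups of cell type, sex and time held 3 or 4 libraries each, told apart by a letter (A to E) in the title whose meaning the labels do not give. The labels do not say that every library came from different animals, so p-values describe the spread between these libraries. The marker genes of D1 and D2 neurons could not be checked, because no table at hand pairs the identifiers with symbols.

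Totals ranged from 6872165 to 24665262 counts over the 91 libraries. Levels are given as CPM, the count scaled to the library's TMM-adjusted total, and every subunit gene was measured in every library, the lowest value being 3.77 CPM for Psmb2. 3 D1 male libraries stood apart: ZT10 B, ZT18 D and ZT22 B. Their median correlation with the other D1 libraries over all genes was 0.880, 0.926 and 0.901 in log2 CPM, against 0.969 to 0.987 for the other 42. In these libraries the subunit genes parted from each other. In ZT22 B, 17 of the 31 lay above and 3 below the range of the 42 others, from 3.03 times their median for Psma4, an alpha ring gene, to 0.478 times for catalytic Psmb5. In ZT10 B, 11 lay above and 4 below, with Psmd4 at 1.99 times and Psmb2, a non-catalytic inner ring gene, at 0.173 times that median. In ZT18 D, 8 lay above and 5 below. Psmb2 was below the other 42 libraries in all 3, and Psmc1, Psmc3, Psmc5, Psmd4 and Psmd7 were above them in all 3.

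The sequences upstream of the start sites are shown for 4 members: catalytic Psmb5 and Psmb6, which hold an antioxidant response element core (TGACNNNGC), and Psmd4 and Psma1, on whose time course the results below turn and which hold a CCAAT box. They are the 250 bases before the RefSeq start on build GRCm38.p6, 5′ to 3′ along the gene, with matches on either strand in capitals. Psmb5 lies at chr14:54617996-54618245 (minus strand), Psmb6 at chr11:70525107-70525356 (plus strand), Psmd4 at chr3:95042615-95042864 (minus strand) and Psma1 at chr7:114276117-114276366 (minus strand).
Psmb5: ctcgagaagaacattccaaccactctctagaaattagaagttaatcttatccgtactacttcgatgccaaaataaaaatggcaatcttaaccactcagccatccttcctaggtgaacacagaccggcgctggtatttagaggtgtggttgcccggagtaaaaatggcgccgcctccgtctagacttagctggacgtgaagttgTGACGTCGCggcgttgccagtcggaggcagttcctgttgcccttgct
Psmb6: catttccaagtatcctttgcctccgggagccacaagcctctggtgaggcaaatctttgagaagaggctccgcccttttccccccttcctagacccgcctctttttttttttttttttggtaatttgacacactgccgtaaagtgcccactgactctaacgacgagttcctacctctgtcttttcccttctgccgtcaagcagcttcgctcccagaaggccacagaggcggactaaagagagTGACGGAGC
Psmd4: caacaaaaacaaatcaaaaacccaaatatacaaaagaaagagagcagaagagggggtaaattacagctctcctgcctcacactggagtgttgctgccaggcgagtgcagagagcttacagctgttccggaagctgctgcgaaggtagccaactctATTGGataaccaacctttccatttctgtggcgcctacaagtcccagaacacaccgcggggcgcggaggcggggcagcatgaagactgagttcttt
Psma1: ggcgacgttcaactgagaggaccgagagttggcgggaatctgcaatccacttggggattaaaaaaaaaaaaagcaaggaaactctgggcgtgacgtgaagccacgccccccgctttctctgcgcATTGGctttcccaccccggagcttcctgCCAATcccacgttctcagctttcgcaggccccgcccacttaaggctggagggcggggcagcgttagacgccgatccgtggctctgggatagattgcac
The match begins 47 bases before the start in Psmb5 and 9 before it in Psmb6. Those of Psma1 begin 126 and 98 bases before the start, and the one shown for Psmd4 begins 95 before it.

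RefSeq windows running from 250 bases before to 50 after the start were at hand for 25 of the 31 members and for 27025 genes in all. TGACNNNGC, on either strand, occurred in 4 members (16%: Psmb5, Psmb6, Psmc6 and Psmd12), against 14.0% of all genes with a window. CCAAT occurred in 10 members (40%), against 41.1% of all genes. The E-box CACGTG, which clock proteins of the CLOCK and BMAL1 family bind, occurred in Psma4 alone among the members (4%, against 8.09%). The cAMP response element TGACGTCA (2.03% of genes) and the D-box form TTANGTAA (2.72%) occurred in none. For each motif the members' share was close to or below that of all genes. No searched motif lies within another, and a match describes letters in the window, not a bound site.

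Subunit mRNA differed between libraries of different title letters. In D2 neurons the summed level of the 31 genes was 2192 ± 110 CPM (SD, n = 12) in letter A, 1986 ± 183 (n = 10) in B, 1397 ± 117 (n = 12) in C and 1423 ± 60.4 (n = 12) in D. The lowest library of A and B, at 1782 CPM, was above the highest of C and D, at 1562, so those letters did not overlap. In D1 neurons the sums were 1968 ± 227 in A (n = 12), 2269 ± 362 in B (n = 9), 1641 ± 177 in C (n = 12) and 1795 ± 226 in D (n = 11), and the letters overlapped. The letter effect passed the test for all 31 genes in D2 neurons (adjusted p at most 3.6e-05, edgeR quasi-likelihood test), where it passed for 85.6% of all genes, and for 24 of 31 in D1 neurons (58.4% of all genes). Without the 3 D1 libraries that stood apart it passed for 29 of 31 there (66.6% of all genes). The share of members was above the share of all genes in both, but most genes of the table shifted with the letter.

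**Figure D1:**
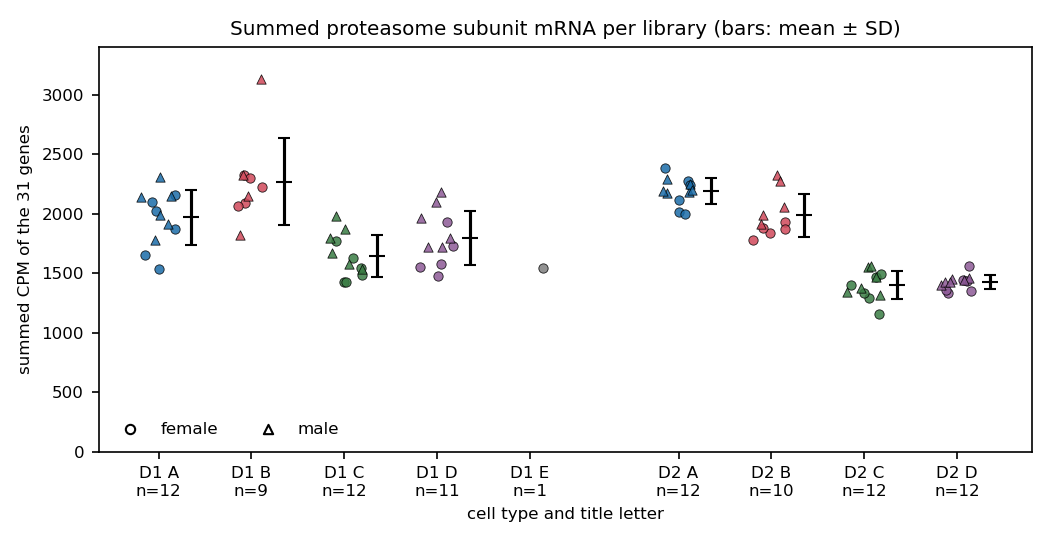
Summed CPM of the 31 genes (vertical axis, from 0) for each library, by cell type and title letter (horizontal axis); circles are female and triangles male libraries, and bars are mean ± SD. D2 libraries of letters A and B lie at 1782 CPM or above and those of C and D at 1562 or below, and the highest point is the D1 male ZT22 B library at 3135.

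By summed level, the inner ring differed most between letters A and C. In D2 neurons the summed level of the inner ring was 1.86 times higher in letter A than in C, that of the ATPases 1.67 times, that of the other regulatory subunits 1.50 times and that of the alpha ring 1.45 times. Psmb5 was at 13.9 ± 2.0 CPM in A, 11.7 ± 1.4 in B, 6.3 ± 1.2 in C and 6.6 ± 1.2 in D, and its lowest library of A, at 11.1, exceeded its highest of C, at 8.0. Psmb6 stood at 52.2 ± 3.7, 45.1 ± 4.5, 24.3 ± 3.4 and 27.3 ± 2.0 CPM. Psmb7 stood at 48.5 ± 3.8, 41.1 ± 6.3, 24.7 ± 3.7 and 27.4 ± 2.8 CPM. The fitted ratios of A to C for these 3 catalytic genes were 2.22, 2.14 and 1.96. The inner ring was not uniform: Psmb4 and Psmb1 were at 1.97 and 1.80, but Psmb3 and Psmb2 were at 1.49 and 1.46, below the median of the 31 genes. Outside it, Psma6 was at 2.00 and Psmd8 at 1.99. At the other end, Psma3 (an alpha ring gene) was at 74.1 ± 4.3 CPM in A and 68.6 ± 3.1 in C, a ratio of 1.08, and Psmd11, a lid subunit, had a ratio of 1.13. The median ratio over the 31 genes was 1.60, and 14.8% of all genes had a larger one.

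Sequencing depth moved with the letter in D2 neurons. Totals were 14225115 to 24665262 counts in A, 10783444 to 23735861 in B, 8965613 to 14606921 in C and 6872165 to 13012978 in D. Its part in the letter difference was not tested.

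Within a cell type the 31 genes went up and down together from library to library. Over the 46 D2 libraries, the median Pearson correlation between 2 members, on deviations of log2 CPM from the group mean, was 0.905 over 465 pairs, and all 465 were above 0. The median over pairs of all genes was near 0 (-0.0002), and 4.17% of those pairs exceeded the members' median. With letter means removed as well, the members' median was 0.465, exceeded by 5.39% of pairs of all genes, and 422 of the 465 pairs were above 0. In the 45 D1 libraries the median was 0.663 (6.46% of pairs of all genes above), 0.522 (10.4%) with letter means removed, and 0.776 (4.04%) without the 3 libraries that stood apart. These correlations are descriptions; the points share libraries and, in part, depth and letter.

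The ATPases of the base tracked each other most closely. Their median correlation was 0.945 in D2 and 0.871 in D1 neurons, with Psmc1 and Psmc3 at 0.975 in D1 neurons. The inner ring had the lowest median in D2 neurons (0.793). With letter means removed, the median of the ATPases was 0.652 in D2 and 0.801 in D1 neurons, and that of the inner ring in D2 neurons was 0.213. In D1 neurons Psmb2 had a mean correlation of 0.10 with the other members, Psmd3, a lid subunit, 0.29 and Psmb3, another inner ring gene, 0.30. Without the 3 libraries those means were 0.59, 0.60 and 0.62, so with letters kept the low D1 values rest largely on these libraries. In D2 neurons, with letters kept, Psma3 was lowest at 0.60, followed by Psmb2 at 0.72 and Psmb3 at 0.73. With letter means removed, Psmd3, Psmb3, Psmb2 and Psma3 were at 0.07, 0.08, 0.11 and 0.14 there. With letters kept, the most negative pair was Psmb2 with Psmd4 in D1 neurons, at -0.41. Without the 3 libraries all 465 pairs in D1 neurons were above 0, the lowest at 0.18.

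**Figure D2:**
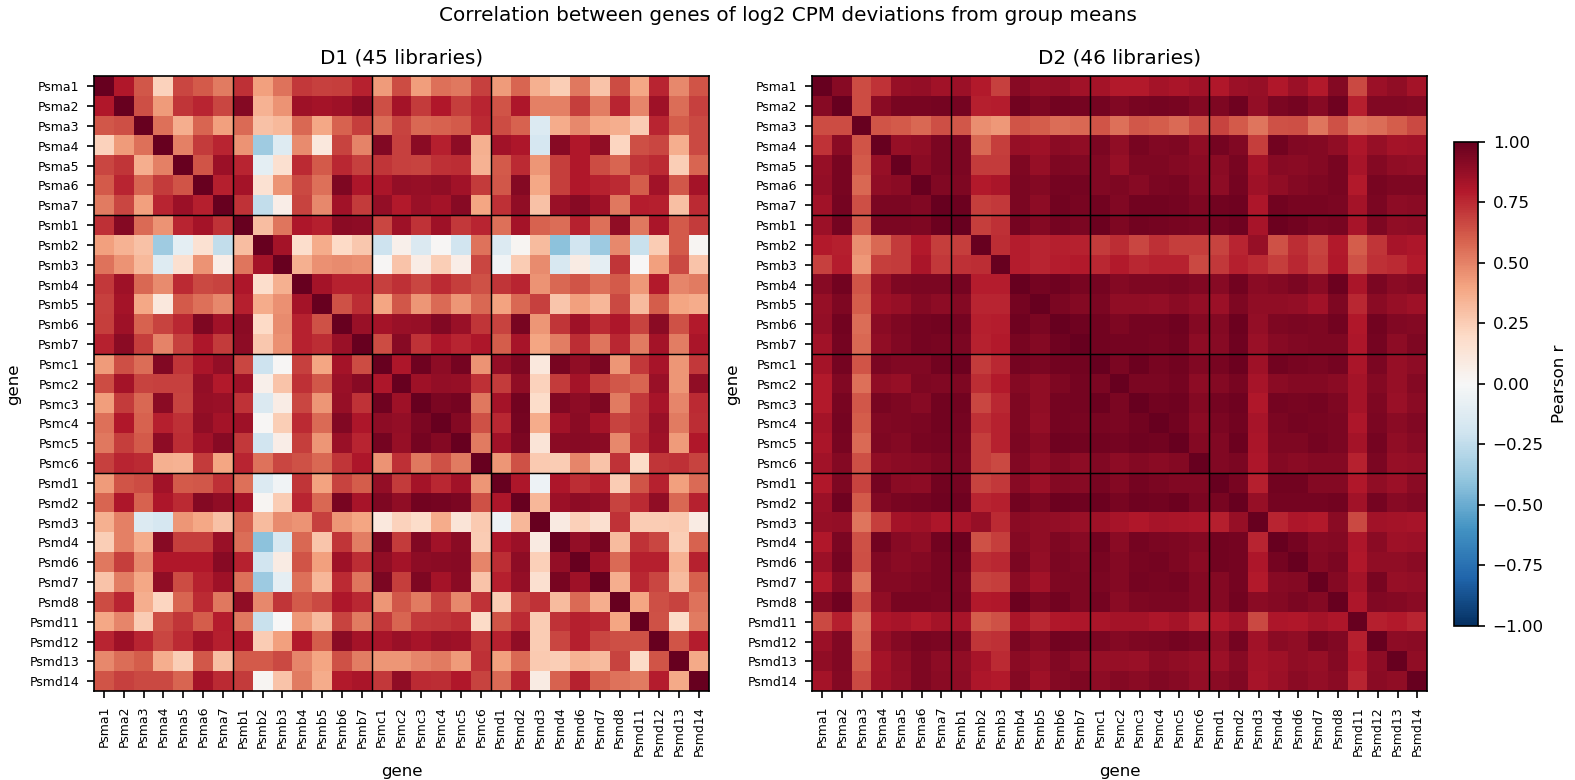
Pearson correlation (colour, from -1 to 1) between each pair of the 31 genes, from log2 CPM deviations from group means, in 45 D1 libraries (left) and 46 D2 libraries (right); black lines part the alpha ring, beta ring, ATPases and other regulatory subunits. The D2 panel is positive throughout, with Psma3 palest, and the D1 panel shows pale or blue rows for Psmb2, Psmb3 and Psmd3.

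The comparison of D1 with D2 neurons asks whether subunit mRNA bound to ribosomes differs between the output neurons of the direct and the indirect pathway. The summed level was 1426 to 3135 CPM in D1 libraries (median 1873) and 1154 to 2385 in D2 libraries (median 1560), and the ranges overlapped widely. 1 of 31 genes passed the test, Psmc5, an ATPase, which was higher in D1 neurons; this is 3.23% of the members against 9.44% of all genes that were higher in D1. Psmc5 was at 51.9 to 189 CPM in D1 libraries (median 77.0) and 39.0 to 104 in D2 (median 62.8), a log2 difference of 0.25 ± 0.08 (SE), or 1.19-fold (adjusted p = 0.0173, edgeR). The groups overlapped. 29 of 31 estimates were above 0, with a median of 0.11 against -0.01 for all genes. Since the genes vary together over the libraries, these estimates are not separate observations.

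Without a term for letter or depth, the other members did not pass. Psmd4, the ubiquitin receptor, had a log2 difference of 0.20 ± 0.08 and Psmd1, a scaffold subunit, 0.11 ± 0.04 (adjusted p = 0.0571 for both). The catalytic genes had 0.12 ± 0.10 for Psmb5, 0.12 ± 0.09 for Psmb6 and 0.13 ± 0.09 for Psmb7. With RLE size factors Psmc5, Psmd1 and Psmd4 passed (9.68% of members, 10.2% of all genes), as they did with DESeq2 (10.9% of all genes). In a fit with a term for the letter, 24 of 31 were higher in D1 neurons (22.7% of all genes were), with a block within cell type 25 (26.2%), and with depth as a covariate 14 (18.2%); none was lower in any of these fits, and the medians were 0.15, 0.16 and 0.13.

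By estimate, the direction depended on the letter. The labels do not say that a letter means the same in both cell types, and letters were not taken to pair libraries between them. D2 libraries of a letter deviated together, so p-values within a letter treat a shared shift as separate libraries. Within letter A, 20 of 31 genes were lower in D1 than in D2 neurons and none was higher, with a median of -0.17 (24.4% of all genes were lower in D1). Within letter B, 15 were higher in D1 (20.8% of all genes) and Psmb2 was lower, by 0.78 on the log2 scale, with a median of 0.16; letter B holds 2 of the 3 libraries that stood apart. Within letter C 27 were higher (28.1% of all genes), with a median of 0.26, and within D 26 were higher (28.0%), with a median of 0.36. The shift ran through all 4 classes of subunit. Psmd4 was at 98.1 ± 13.1 CPM in D1 and 117 ± 13.3 in D2 libraries of letter A (-0.26), at 138 ± 54.7 against 107 ± 16.7 in B (0.58), at 86.7 ± 11.1 against 73.8 ± 15.1 in C (0.26) and at 106 ± 25.8 against 67.4 ± 3.2 in D (0.61). Psmb5 had -0.30 in A, 0.53 in C and 0.62 in D, all past the test, and -0.27 in B, which did not pass. These differences come from fits within single letters. D1 libraries of letter B lacked ZT18 and, in males, ZT14, so fitted differences in B can depart from those of the observed means. In a joint fit of letters A to D, the differences in B were 0.38 for Psmd4, -0.16 for Psmb2 and 0.02 for Psmb5.

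**Figure D3:**
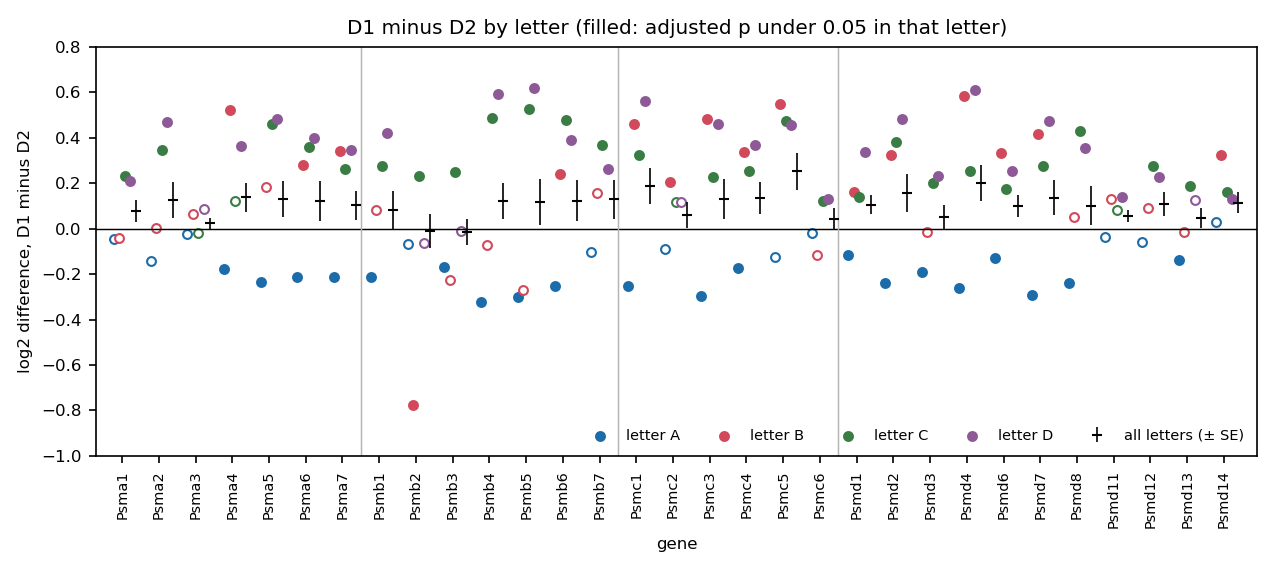
Log2 difference, D1 minus D2 (vertical axis), for each of the 31 genes (horizontal axis), within each letter (coloured points, filled where adjusted p was under 0.05) and over all letters (black, ± SE). Letter A points lie below 0 for 30 of 31 genes, and most points of C and D lie above 0, around pooled values whose median is 0.11.

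A test of the difference between letters in D1 minus D2 passed for 26 of the 31 genes (64.8% of all genes, edgeR); Psma3, Psmb2, Psmc6, Psmd11 and Psmd14 did not pass it. Without the 3 libraries that stood apart it passed for 28 (68.9% of all genes), and the medians of D1 minus D2 were -0.17 in A, 0.13 in B, 0.27 in C and 0.33 in D. In this joint fit of the letters, Psmb2 was at 0.11 in B without those libraries, against -0.16 with them. Psmd4 was at 0.14 against 0.38 in B, and at 0.59 against 0.61 in D. The pooled count also changed with single letters. Without letter A, 26 of 31 genes were higher in D1 neurons (24.9% of all genes), with a median of 0.24. Without letter B, C or D none passed (5, 5 and 1 at an unadjusted p under 0.05, against 28.5%, 24.4% and 20.0% of all genes), and Psmc5 was at 0.21, 0.21 and 0.19 (adjusted p = 0.0933, 0.101 and 0.259). Without the 3 libraries that stood apart none passed either, and Psmc5 was at 0.18 (adjusted p = 0.108). Fewer cells of a type, less RNA per cell and a different capture of ribosomes cannot be told apart in such samples.

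Time of day was fitted as a wave with a period of 24 h, and amplitudes are given in log2 units as the distance of the peak from the mean level. In D1 neurons no subunit gene passed the test for rhythm (edgeR; 0.495% of all genes did), with 1 at an unadjusted p under 0.05 (12.6% of all genes) and 0 called by DESeq2. The summed level was highest at ZT2 (1543 to 2328 CPM, median 2122) and lowest by mean at ZT18 (1426 to 2180, median 1832). By median it was lowest at ZT22 (1689), and the times overlapped. No D1 library at ZT18 was of letter B, the D1 letter with the highest sum (2269 ± 362 CPM, n = 9). Psmd3 came closest. It was at 50.3 to 72.6 CPM at ZT2 (median 61.9), 48.0 to 71.8 at ZT6 (62.2), 49.0 to 73.6 at ZT10 (56.1), 44.3 to 72.5 at ZT14 (58.2), 30.2 to 57.2 at ZT18 (52.9) and 41.8 to 63.7 at ZT22 (55.1). Its amplitude was 0.13 ± 0.05 (SE), with a fitted peak at ZT5.48 (adjusted p = 0.351). Without the 3 libraries that stood apart no member had an unadjusted p under 0.05. Fitted peaks of 29 of the 31 genes lay between ZT18 and ZT7, though none of these waves passed. The genes vary together over the same libraries, so their peaks are not separate observations, and this fit held no term for the letter. The median amplitude of 0.07 was below that of all genes, 0.09.

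In D2 neurons no subunit gene passed without a term for the letter (2.94% of all genes did), none had an unadjusted p under 0.05, and DESeq2 called 0. The summed level had means of 1720 ± 462 (SD, n = 7), 1736 ± 340 (n = 7), 1784 ± 433 (n = 8), 1787 ± 382 (n = 8), 1717 ± 399 (n = 8) and 1689 ± 343 CPM (n = 8) from ZT2 to ZT22, and the ranges of all times overlapped. The medians ran from 1397 at ZT2 to 1698 at ZT14, but ZT2 and ZT6 each held 1 library of letter B, where the other times held 2, and letter B libraries were among the high ones, at 1986 ± 183 CPM (n = 10). Libraries of a letter deviated together in D2 neurons, so the letter was also fitted as a block. With it 7 genes passed, 22.6% of the members, close to the 22.3% of all genes that did. They were Psmd4, the alpha ring genes Psma1, Psma4, Psma5 and Psma7, the ATPase Psmc1 and the scaffold subunit Psmd1. 6 of the 7 had fitted peaks between ZT7 and ZT9, in the light phase, and Psma1 peaked at ZT15.2, in the dark phase. Here too the genes vary together, so the peaks are not separate observations. The changes were small, from 1.10-fold to 1.24-fold between trough and peak.

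**Figure D4:**
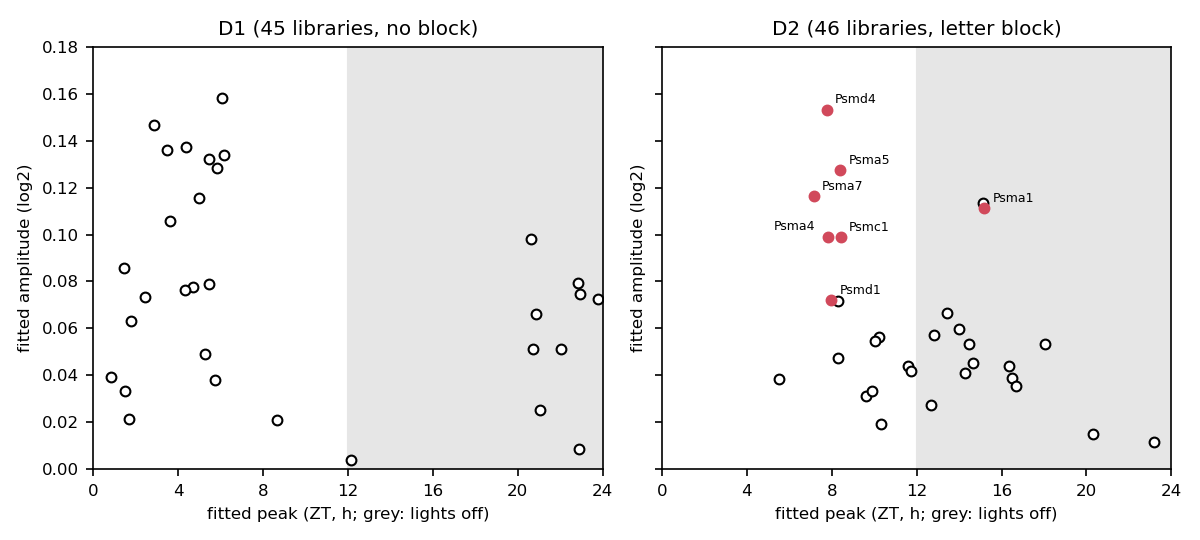
Fitted amplitude (log2, vertical axis) against fitted peak time (ZT in hours, horizontal axis, grey for lights off) for the 31 genes in D1 libraries without a block (left) and in D2 libraries with the letter as a block (right); red points have an adjusted p under 0.05. The 7 red points are all in the D2 panel, 6 of them between ZT7 and ZT9 and Psma1 at ZT15.2; no D1 point passed.

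Psmd4 had the lowest p, with an amplitude of 0.15 ± 0.03 and a peak at ZT7.76 (adjusted p = 0.000706 with the block, 0.750 without it). In letter A it was at 126 CPM at ZT2, 116 at ZT6, 125 at ZT10, 127 at ZT14, 108 at ZT18 and 101 at ZT22, as means of the libraries of each time. In letter B, in which ZT2 held a single male library and ZT6 a single female library, it was at 143, 110, 119, 105, 94.2 and 92.1. In letter C it was at 70.9, 91.0, 83.3, 73.0, 61.4 and 63.3, and in D at 67.1, 70.3, 65.8, 68.7, 64.5 and 68.2. The mean of ZT6 and ZT10 was thus 1.15, 1.24, 1.40 and 1.03 times that of ZT18 and ZT22 in A, B, C and D. Fitted within letters, its amplitude was 0.12, 0.24, 0.27 and 0.02, with peaks at ZT8.88, 7.10, 7.76 and 6.08, and it passed in B and in C (adjusted p = 0.0432 and 0.0245).

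Psma1 ran later. Its amplitude was 0.11 ± 0.03 with the block (adjusted p = 0.0119) and 0.13 ± 0.05 without it (adjusted p = 0.478), and the peak was at ZT15.2 and ZT15.3. Over all D2 libraries it was at 28.2 to 38.5 CPM at ZT2 (median 31.0), 27.0 to 40.1 at ZT6 (31.2), 26.1 to 49.0 at ZT10 (32.2), 29.9 to 44.6 at ZT14 (40.6), 28.9 to 46.7 at ZT18 (37.5) and 24.3 to 45.9 at ZT22 (35.9). Within letters its amplitude was 0.11, 0.14, 0.17 and 0.01 in A, B, C and D, so the wave was smallest in D for it as for Psmd4.

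**Figure D5:**
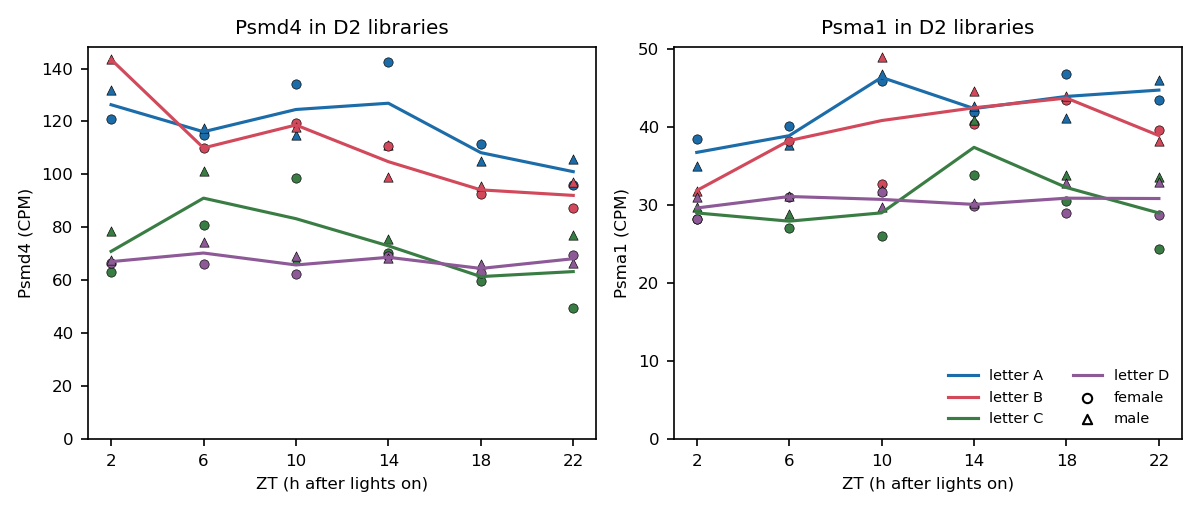
CPM of Psmd4 (left) and Psma1 (right) in each D2 library against ZT; colours mark letters, circles female and triangles male libraries, and lines join the means of each letter. The letters are set apart by more than the change over the day, with Psmd4 means of 117 CPM in letter A and 67.4 in D.

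The other genes called with the block were alike in size. Psma7 had an amplitude of 0.12 ± 0.03 (peak ZT7.16, adjusted p = 0.00418) and Psma5 0.13 ± 0.04 (ZT8.41, adjusted p = 0.0245). Psma4 and Psmc1 both had 0.10 ± 0.03 (ZT7.84 and 8.41, adjusted p = 0.0144 and 0.0128), and Psmd1 had 0.07 ± 0.02 (ZT7.99, adjusted p = 0.0120). None of the catalytic genes passed: Psmb5 had 0.01 ± 0.05, Psmb6 0.03 ± 0.03 and Psmb7 0.05 ± 0.03. In the fit without a block, no member differed in rhythm between D1 and D2 neurons (0.0139% of all genes did, edgeR). There 0 members had an unadjusted p under 0.05, and DESeq2 called 0. The lowest p was that of Psmb3, with a difference of 0.20 ± 0.08 (adjusted p = 0.601). With a block within cell type only Psmd4 passed. That share of the members was close to the share of all genes that passed, which is given in the last section.

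The sexes were compared within each cell type. Counts of members with estimates in the same direction are not separate observations, because the genes vary together over the libraries. In D1 neurons the summed level was 1426 to 2328 CPM in females (median 1732) and 1536 to 3135 in males (median 1940). No subunit gene passed (0.0418% of all genes did, edgeR; DESeq2 0), though 10 of 31 had an unadjusted p under 0.05 (15.5% of all genes had) and 25 estimates were higher in males, with a median of 0.11 against -0.0039 for all genes. Psmd4 was at 64.3 to 133 CPM in females (median 87.2) and 88.5 to 262 in males (median 105), a log2 difference of 0.35 ± 0.10, or 1.27-fold (adjusted p = 0.204). The 3 libraries that stood apart are all male. Without them 1 gene had an unadjusted p under 0.05 (6.92% of all genes), and the median was 0.07. Without letter B, Psmd4 and Psmc1 passed (1.62% of all genes were higher in males).

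In D2 neurons the summed level was 1154 to 2385 CPM in females (median 1562) and 1319 to 2326 in males (median 1558). Without the block no gene passed (0.216% of all genes did, edgeR), none had an unadjusted p under 0.05, and DESeq2 called 0. All 31 estimates were higher in males, with a median of 0.10 against 0.0020 for all genes, but the genes vary together over these libraries. Male libraries were deeper, at 15205404 ± 4708664 counts against 13752523 ± 4389941, and with depth as a covariate the median was 0.0052 and 19 estimates were higher in males. The lowest unblocked p was that of Psmb2, at 0.12 ± 0.08 (adjusted p = 0.926).

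Once the letter was added as a block, 5 members were higher in D2 males, 16.1% of the members against 5.01% of all genes. They were Psmd8, a lid subunit (0.16 ± 0.04, adjusted p = 0.00654), the alpha ring genes Psma2 (0.16 ± 0.04, adjusted p = 0.0156) and Psma7 (0.12 ± 0.04, adjusted p = 0.0364), the inner ring gene Psmb1 (0.11 ± 0.04, adjusted p = 0.0493) and the ATPase Psmc2 (0.11 ± 0.04, adjusted p = 0.0499). The sexes overlapped in each: Psmd8 was at 24.8 to 70.8 CPM in females (median 36.0) and 33.2 to 69.6 in males (median 37.8), and Psma2 at 15.7 to 48.0 (median 25.3) and 20.7 to 45.3 (median 29.8). The difference was uneven over letters, with Psmd8 at 0.02, 0.20, 0.29 and 0.18 and Psmb1 at 0.02, 0.30, 0.14 and 0.03 in A, B, C and D. Within letter B alone 14 members passed (8.70% of all genes were higher in males), and within A, C or D none did (3, 5 and 3 at an unadjusted p under 0.05, against 6.62%, 8.79% and 7.38% of all genes).

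No subunit gene passed the tests of a sex difference in rhythm in D1 or in D2 neurons, or of a difference between D1 and D2 neurons in the sex difference (edgeR, and 0 with DESeq2 in each). No member had an unadjusted p under 0.05 in any of these 3 tests with edgeR, and with the block in D2 neurons 5 did for the sex difference in rhythm (13.7% of all genes). These were Psmd4, Psma4, Psmd1, Psmd7 and Psmc4, and none passed after adjustment. Psmd4, Psma4 and Psmd1 are also among the genes called for rhythm with the block, so their fitted peaks are averages over the sexes. Without the block, the smallest p values were those of Psmc5 in D1 rhythm (0.32 ± 0.15), Psma4 in D2 rhythm (0.21 ± 0.11) and Psmb2 in the sex difference. For Psmb2 the sex difference was lower by 0.28 ± 0.15 in D1 than in D2 neurons (adjusted p = 0.816). The Psmc5 and Psmb2 results include the 3 D1 male libraries that stood apart. In each of these, Psmc5 was above and Psmb2 below all 42 other D1 libraries.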

How the data were processed

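The values deposited by the authors are raw counts, not normalised: whole numbers for 14355 Ensembl identifiers in 91 libraries, with totals of 6872165 to 24665262. Per the submitters' processing notes, FastQC 0.11.7, HISAT2 and HTSeq 0.10.0 were used, and the builds GRCm38 and GRCh38 are named without their roles; the sources used here do not say how reads matching several places were counted, which bears on subunit genes with pseudogene copies.

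The tests were run with edgeR 4.0.16 under R 4.3.3 (TMM normalisation, quasi-likelihood F-test, Benjamini-Hochberg adjustment over all 14355 genes, threshold 0.05), with a mean and a cosine and sine term (period 24 h) for each sex and cell type. D1 libraries, D2 libraries and all 91 were fitted separately. SEs of amplitudes come from the SEs of both terms. CPM use TMM-adjusted totals, and correlations use log2 CPM with a prior count of 2. The fits were also run on simulated counts. Those counts held no letter effect and no libraries set apart, so the runs do not show how the fits behave with either. Levels were not compared between genes, since lengths were not used.

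The members and lists were chosen with earlier results of these data known. Values by group were given for members past the threshold in a comparison, the member of lowest p in each, and the 3 catalytic genes. A list of proteasome partners (Nfe2l1 among them) and lists of cell type markers were not scored here, since 0 of 49997 reference entries carry an Ensembl identifier. Promoter windows are RefSeq's on GRCm38.p6.

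Pairing by letter was checked from correlations of deviations from group means over all genes. All 243 same-letter pairs of D2 libraries were over 0.1 (lowest 0.193, median 0.722), so letters were taken to pair them. In D1 libraries 149 of 223 pairs were (lowest -0.61), and between cell types 375 of 510 (lowest -0.72), so letters were not taken to pair these. Alternatives were the letter as a block, also within cell type, letters left out in turn, RLE size factors, filterByExpr, DESeq2 1.42.0, depth as a covariate, time as 6 levels, and leaving out the 3 D1 libraries that stood apart. Fits within single letters and tests of the letter were added after the data were seen.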

Additional observations from a re-analysis of the deposited data

Results flagged for a closer look

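Libraries far from the others of their group were looked for in 67 groups of 4 to 8 libraries (the summed level of the 31 genes in each group and in each cell type and time, and Psmc5, Psmd4 and Psma1 in each cell type and time). Dixon's rule marked 8 values, and chance marks about 1 in 20 groups. In the D1 male ZT22 B library the summed level was 3135 CPM against 1485 to 2222 in the 7 other D1 libraries of that time, Psmc5 was at 189 CPM against 54.7 to 92.9, and Psmd4 was at 262 CPM against 74.7 to 129. Psmd4 was also apart in D1 male ZT10 B, at 192 CPM against 64.3 to 117, and in D1 male ZT18 D, at 164 CPM against 75.4 to 99.0. These are the 3 libraries that correlated least with the other D1 libraries over all genes. Psmc5 was low in D1 female ZT14 A, at 54.4 CPM against 75.0 to 88.6. Psma1 was low in D1 male ZT14 D, at 26.3 CPM against 38.1 to 44.9, and in D1 female ZT18 C, at 31.1 CPM against 36.6 to 38.3. All 8 values were from D1 libraries.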

How the results depend on the processing

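Of 134 counts of subunit genes under alternatives, 106 were within 1.5 times the count reported, and of 96 values of named genes, 82 kept their direction and their side of the threshold. The count for D1 minus D2 (1 of 31) was 24 with the letter as a block, 25 with a block within cell type, 25 with the block and without the 3 D1 libraries that stood apart and 14 with depth as a covariate, all higher in D1; 22.7%, 26.2%, 25.9% and 18.2% of all genes were higher in D1 in those fits, against 9.44% in the fit reported. It was 0 without those libraries, 3 with RLE size factors and 3 with DESeq2. With a letter left out it ranged from 0 to 26 (12.3% to 48.2% of all genes, in either direction), and within A, B, C and D it was 20, 16, 27 and 26 (48.3%, 48.3%, 55.9% and 54.3%). Psmc5 reversed to -0.13 within letter A (adjusted p = 0.0908). For rhythm in D2 neurons (0) the block gave 7 (22.3% of all genes), and within B and C it was 1 each (1.08% and 1.94%). For the sex difference in D2 neurons (0) the block gave 5 (9.45% of all genes) and letter B alone 14 (17.7%). Between the sexes in D1 neurons (0) the block gave 8 (7.26% of all genes), leaving out a letter gave 0 to 2, and letter B alone gave 16 (37.6%). Letter B alone also gave 14 for rhythm (29.0% of all genes) and 14 for the sex difference in rhythm (24.7%) in D1 neurons, 17 for the difference in rhythm between cell types (38.6%) and 17 for that in the sex difference (39.6%). In D1 neurons letter B holds 9 libraries, 4 of them male, and 2 of those 4 are among the 3 that stood apart. A block within cell type gave 1 for the difference in rhythm, Psmd4 (3.24% of all genes). The block changed no other call in D2 neurons. The cause of these changes was not tested. Letters were not taken to pair D1 libraries, so block values there are given for comparison. With depth as a covariate the median sex difference in D2 neurons went from 0.10 to 0.0052.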
